A study of Sus scrofa with 12 samples.

Results

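The histone chaperones HIRA, ASF1A, ASF1B, CHAF1A, CHAF1B, DAXX, ATRX, NASP and NPM2 and the centromeric histone CENPA were taken from a count table of porcine (Sus scrofa) embryos by their gene symbols. Of these 10 genes, 9 had a row among the 29329 genes of the table, and all 9 passed the filter on low counts. NPM2 had no row under that symbol and was not analysed here. The embryos came from in vitro fertilisation of abattoir oocytes with boar semen, and were profiled by SMART-seq, which copies polyadenylated RNA into full-length cDNA and amplifies it by PCR. The 12 libraries formed 4 groups of 3, control embryos titled con-2c and con-4c and embryos injected with si-CCNB2, an siRNA against the mRNA of cyclin B2 (CCNB2), titled si-2c and si-4c. According to the methods of the study each library pooled 10 embryos, and the siRNA was delivered by microinjection after fertilisation. The labels call the controls blank, while the methods call them both normal and a negative control group. The methods also list negative controls among the injected solutions, but given the labels it is not clear whether these embryos were injected.

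Histone chaperones escort histones from synthesis to DNA. HIRA and the ATRX-DAXX complex place the histone variant H3.3 without DNA replication, ASF1A and ASF1B hand H3-H4 dimers on to HIRA or to the chromatin assembly factor CAF-1, and CAF-1 (subunits CHAF1A, CHAF1B and RBBP4) places H3-H4 behind replication forks. NASP guards a soluble store of H3-H4, and CENPA is the H3 variant that marks the centromere. Oocytes stock such proteins and their mRNAs because the first cleavages proceed before the embryonic genome is fully active.

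In all 12 libraries the title names another stage than the tissue label does (2c titles go with 4-cell embryos, and 4c titles with 2-cell embryos), and groups are named here by title only. Exchanging the stages in all 12 libraries would turn the sign of each difference between title stages. Library totals were 27785233 to 39510908 counts, and the mean correlation of a library with the others of its group was 0.953 to 0.967. Levels are TMM-scaled CPM, each gene's count relative to the scaled total of its library, given as mean ± SD with n = 3. They are shares of each library, so fewer embryos or cells and less RNA per cell cannot be seen in them. A change of a gene's own transcript cannot be told apart from a change of the rest of the library. CCNB2, the target, fell in both si groups, from 464 ± 21.7 CPM in con-2c to 22.7 ± 5.58 in si-2c (log2 fold change -4.36 ± 0.15 SE) and from 475 ± 41.9 in con-4c to 42.6 ± 3.65 in si-4c (-3.48 ± 0.14). Across all genes, si-4c lay close to con-2c and si-2c close to con-4c. The summed level of 9 oocyte and early embryo markers was 18932 to 23582 CPM in con-2c and 22069 to 24156 in si-4c, against 9536 to 10265 in con-4c and 9568 to 11479 in si-2c, and its part in the results below was not tested. Cumulus cell markers summed to at most 3.80 CPM (7 of 9 in the table, HAS2 and FOXL2 at 0 in con-2c, si-2c and si-4c). The 2 sperm markers in the table, SPATA18 and AKAP4, were at 0 in con-2c and si-4c and summed to at most 1.35 CPM elsewhere.

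The notation con-4c/con-2c stands for con-4c compared with con-2c, with a positive value for a level that is higher in con-4c, and likewise for the other pairs of groups. A gene was called when its Benjamini-Hochberg adjusted p from edgeR's quasi-likelihood test was below 0.05 and its log2 fold change was at least 1 in size, and "by adjusted p alone" drops the minimum fold. In con-4c/con-2c, the difference between title stages in controls, 1 of 9 members was called, ASF1B, lower, against 17.7% of all genes called in either direction and 3.25% called lower. By adjusted p alone, CHAF1A, ATRX and NASP were higher and ASF1A and ASF1B lower in con-4c, so 5 of 9 members passed, against 35.8% of all genes. The groups did not overlap for 6 of 9 members, against 48.6% of all genes. The median log2 fold change was 0.26 over the 9 members and 0.11 over all genes tested.

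The effect of si-CCNB2 was read in each title stage. In si-2c/con-2c, ASF1B was again the member called, lower, against 12.5% of all genes called and 1.80% called lower. By adjusted p alone CHAF1A, ATRX and NASP were higher and ASF1B lower, 4 of 9 members against 29.0% of all genes, and the groups of 5 members did not overlap, against 41.7%. In si-4c/con-4c, ASF1B was called higher, against 19.0% of all genes called, 3.12% higher and 15.8% lower. There ASF1A, ASF1B and CENPA were higher and CHAF1A, ATRX and NASP lower by adjusted p alone, 6 of 9 against 36.8% of all genes, and the groups of 5 members did not overlap, against 50.9%. In si-4c/si-2c ASF1B was called higher, against 13.3% of all genes called and 1.47% called higher. NASP was lower by adjusted p alone, which made 2 of 9 members against 28.9% of all genes, and the groups of 3 members did not overlap, against 42.8%. These comparisons share libraries with one another, except that con-4c/con-2c and si-4c/si-2c share none and si-2c/con-2c and si-4c/con-4c share none.

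**Figure D1:**
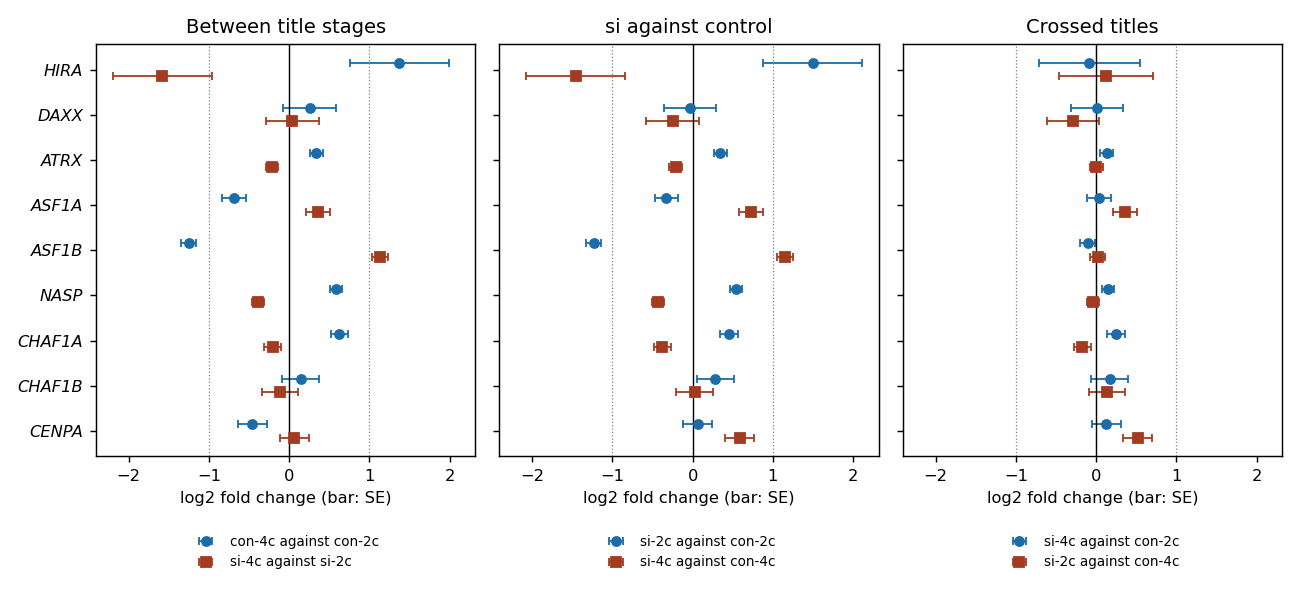
Log2 fold change (x axis, bars are SE) of the 9 members in the stage comparisons, the si against control comparisons and the crossed comparisons; dotted lines mark the minimum fold for a call. ASF1B lies past the dotted lines at -1.25 and -1.23 in con-4c/con-2c and si-2c/con-2c and at 1.15 and 1.13 in si-4c/con-4c and si-4c/si-2c; with library totals as the scale these values are under 1 in size with the same signs, and those of ASF1A in si-2c/con-2c and in si-4c/si-2c change sign.

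HIRA (ENSSSCG00000010118), the scaffold of the complex that deposits H3.3 outside replication and loads it on the paternal genome of the zygote, was scarce, with 5 to 134 counts a library. Its level was 0.414, 0.594 and 1.11 CPM in the con-2c libraries and 2.53, 1.82 and 1.14 in con-4c. It was at 0.450, 0.145 and 1.40 CPM in si-4c, compared with 1.73, 1.37 and 2.88 in si-2c. By group mean HIRA was thus highest in si-2c (1.99 ± 0.788 CPM), then con-4c (1.83 ± 0.698), con-2c (0.705 ± 0.360) and si-4c (0.666 ± 0.657), with overlap between si-2c and con-4c and between con-2c and si-4c. The con-2c libraries lay below every con-4c and si-2c library, whereas si-4c replicate 3 lay above con-4c replicate 3 and si-2c replicate 2.

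Differences of HIRA were above 1 in size on the log2 scale but missed the adjusted p in each comparison of groups that did not cross the titles. They were 1.37 ± 0.62 SE (adjusted p = 0.0960) in con-4c/con-2c and 1.49 ± 0.61 (adjusted p = 0.0797) in si-2c/con-2c. They were -1.46 ± 0.62 (adjusted p = 0.0767) in si-4c/con-4c and -1.58 ± 0.61 (adjusted p = 0.0648) in si-4c/si-2c. Single libraries decided this side of the threshold: without si-4c replicate 3, HIRA was called lower in si-4c/con-4c (-2.61, adjusted p = 0.00533) and against si-2c (-2.74, adjusted p = 0.00509), and without con-4c replicate 1 the control stage difference was 1.06 (adjusted p = 0.283). Without si-2c replicate 3 the difference in si-2c/con-2c was 1.13 (adjusted p = 0.260). The scale decided it too, since with library totals HIRA was called in si-2c/con-2c, si-4c/con-4c and si-4c/si-2c. Other settings that call HIRA are given at the end.

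Among the partners of HIRA, UBN1, a subunit that binds H3.3, was at 29.4 ± 5.88 CPM in con-2c and 26.6 ± 3.45 in si-4c, against 44.1 ± 0.271 in con-4c and 49.4 ± 8.06 in si-2c. By adjusted p alone it was higher in con-4c (log2 fold change 0.59, adjusted p = 0.00411) and si-2c (0.75, adjusted p = 0.000747) against con-2c, and lower in si-4c/con-4c (-0.73, adjusted p = 0.000758) and against si-2c (-0.89, adjusted p = 0.000163). Its paralog UBN2 was at 40.5 ± 3.09, 41.9 ± 1.96, 57.4 ± 2.39 and 54.3 ± 2.30 CPM in the same order of groups, with log2 fold changes of 0.50, 0.42, -0.46 and -0.38 in the same order of comparisons (adjusted p = 0.000213, 0.00132, 0.000523 and 0.00335). For both genes con-4c and si-2c were the high groups. CABIN1, the third partner, was at 2.13 to 3.41 CPM by group mean and passed in none of these comparisons (0.54, adjusted p = 0.243, in con-4c/con-2c).

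ATRX (ENSSSCG00000012434, chrX:61584028-61872341 of Sscrofa11.1 in RefSeq, as for the positions that follow), the remodelling ATPase that works with DAXX at telomeric and pericentromeric repeats, was at 162, 164 and 141 CPM in con-2c and 188, 207 and 196 in con-4c. The si-2c libraries were at 189, 196 and 208 CPM, those of si-4c at 163, 179 and 169. The con-4c and si-2c libraries (188 to 208 CPM) all lay above the con-2c and si-4c libraries (141 to 179 CPM). The log2 fold change was 0.34 ± 0.08 SE in con-4c/con-2c (adjusted p = 0.00300) and equally 0.34 ± 0.08 in si-2c/con-2c (adjusted p = 0.00347). In si-4c it was -0.21 ± 0.08 against con-4c (adjusted p = 0.0498) and -0.21 ± 0.08 against si-2c (adjusted p = 0.0548). The former passed by a narrow margin and had an adjusted p of up to 0.185 when a library was left out (without con-4c replicate 2). With library totals the differences of ATRX in si-4c were -0.47 (adjusted p = 0.000188) and -0.60 (adjusted p = 2.13e-05), and those in con-4c/con-2c and si-2c/con-2c were 0.62 and 0.75.

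DAXX (ENSSSCG00000001509, chr7:29676854-29681145), which holds the H3.3-H4 dimer for ATRX, was low, with 49 to 104 counts a library. Its level was 2.35, 1.46 and 2.15 CPM in con-2c and 3.42, 1.66 and 2.05 in con-4c. The si-2c libraries had 1.80, 2.17 and 1.87 CPM, those of si-4c 1.56, 2.00 and 2.45. The 4 groups overlapped. The log2 fold changes were 0.26, -0.03, -0.25 and 0.04 in con-4c/con-2c and si-2c/con-2c and in si-4c/con-4c and si-4c/si-2c, each with an SE of 0.33 and adjusted p of 0.596 to 0.963. In con-4c/con-2c the 95% interval ran from -0.44 to 0.95, so a change near the minimum fold was within it.

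The substrate gene H3-3A, which encodes H3.3, was at 198 ± 8.09 CPM in con-2c and 213 ± 16.4 in si-4c, against 284 ± 4.16 in con-4c and 231 ± 11.97 in si-2c. By adjusted p alone it was higher in con-4c/con-2c (0.52, adjusted p = 3.82e-05) and lower in si-4c/con-4c (-0.42, adjusted p = 0.000323). In si-2c it was higher than in con-2c (0.22, adjusted p = 0.0362) and lower than in con-4c (-0.30, adjusted p = 0.0214), also by adjusted p alone. H3-3B had no row under that symbol.

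**Figure D2:**
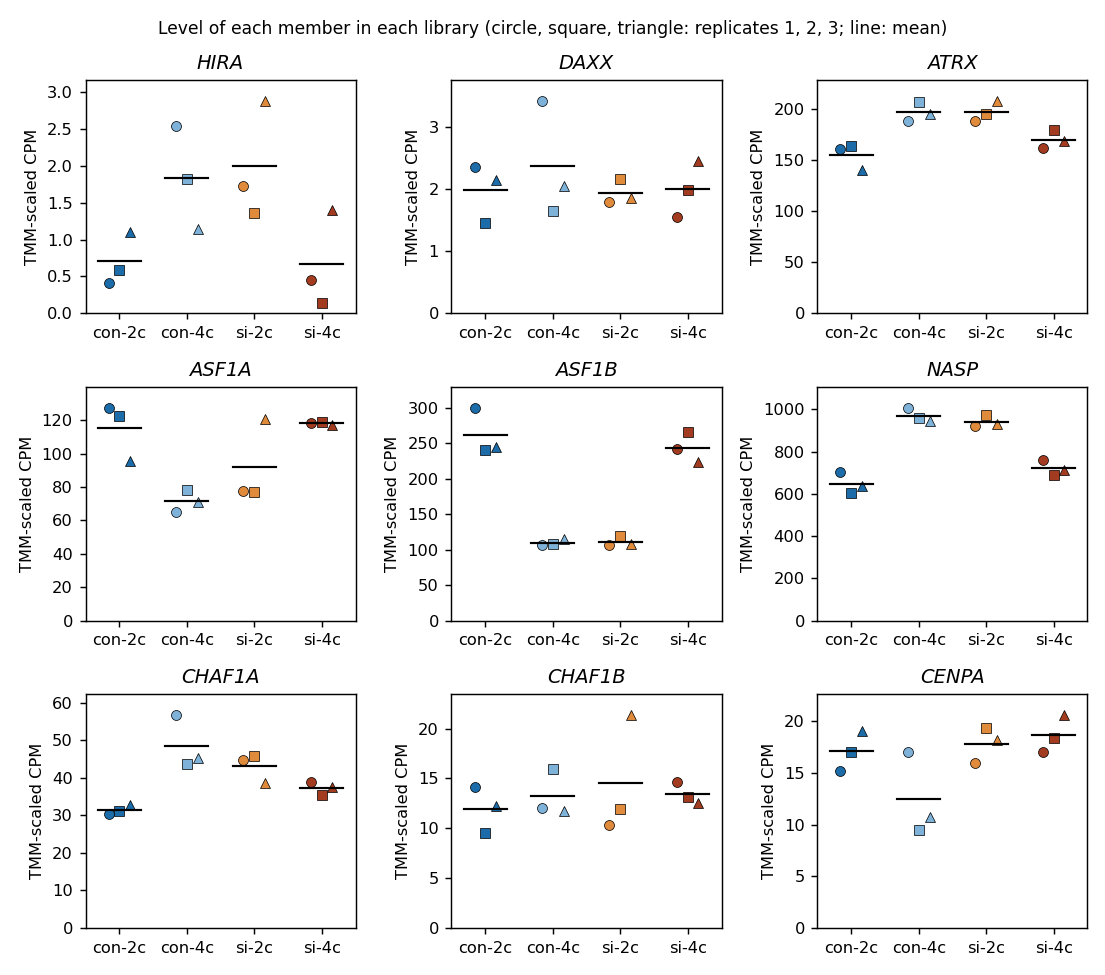
TMM-scaled CPM (y axis, linear, from 0) of each member in each of the 12 libraries, by group on the x axis, with the group mean as a line. ASF1B was at 223 to 300 CPM in the con-2c and si-4c libraries and at 106 to 120 in the con-4c and si-2c libraries, while CHAF1B and DAXX overlap in all groups.

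ASF1A (ENSSSCG00000004247, chr1:43200339-43215019), the ASF1 paralog that serves HIRA, was at 127, 123 and 95.5 CPM in con-2c and 65.2, 78.2 and 71.4 in con-4c. It was at 119, 119 and 117 CPM in si-4c, compared with 77.5, 76.8 and 121 in si-2c. The si-2c libraries were split, with replicates 1 and 2 among the con-4c values and replicate 3 among the con-2c values. ASF1A was lower in con-4c/con-2c (log2 fold change -0.69 ± 0.15 SE, adjusted p = 0.00161) but higher in si-4c/con-4c (0.72 ± 0.15, adjusted p = 0.00105), both by adjusted p alone. The remaining differences missed the threshold, with -0.33 ± 0.15 in si-2c/con-2c (adjusted p = 0.113) and 0.36 ± 0.15 in si-4c/si-2c (adjusted p = 0.0772). Without si-2c replicate 3 these were -0.58 (adjusted p = 0.000971) and 0.61 (adjusted p = 0.000597), and with library totals as the scale they were 0.09 and -0.03.

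ASF1B (ENSSSCG00000013772, chr2:65063186-65072681), the paralog tied to proliferating cells and to CAF-1, separated the groups most clearly among the members. Its level was 300, 240 and 246 CPM in con-2c and 242, 266 and 223 in si-4c. It was 106, 108 and 115 CPM in con-4c and 106, 120 and 108 in si-2c. The order of group means was con-2c (262 ± 32.9 CPM), si-4c (244 ± 21.2), si-2c (111 ± 7.54) and con-4c (110 ± 4.79), with overlap between the first and second and between the other two. ASF1B fell 2.38-fold from con-2c to con-4c (log2 fold change -1.25 ± 0.10 SE, adjusted p = 2.43e-08) and was 2.35-fold lower in si-2c/con-2c (-1.23 ± 0.10, adjusted p = 5.27e-08). It was 2.22-fold higher in si-4c/con-4c (1.15 ± 0.10, adjusted p = 6.83e-08) and 2.19-fold higher in si-4c/si-2c (1.13 ± 0.10, adjusted p = 1.53e-07). With library totals these 4 values were -0.98, -0.84, 0.89 and 0.75, which kept their signs and adjusted p but lay under the minimum fold. The median of all genes itself moved between the scales, from 0.11 to 0.38 in con-4c/con-2c, from 0.12 to 0.52 in si-2c/con-2c, from -0.11 to -0.37 in si-4c/con-4c and from -0.13 to -0.51 in si-4c/si-2c.

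The paralogs moved unequally, which a ratio of counts within a library shows independently of the scaling. There were 2.36, 1.96 and 2.57 ASF1B counts per ASF1A count in con-2c and 2.04, 2.24 and 1.91 in si-4c. There were 1.63, 1.38 and 1.62 in con-4c and 1.37, 1.56 and 0.891 in si-2c. Every con-2c and si-4c library thus lay above every con-4c and si-2c library, a description that was not tested. Transcript lengths were not used, so the ratio compares libraries and not the abundance of the paralogs.

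**Figure D3:**
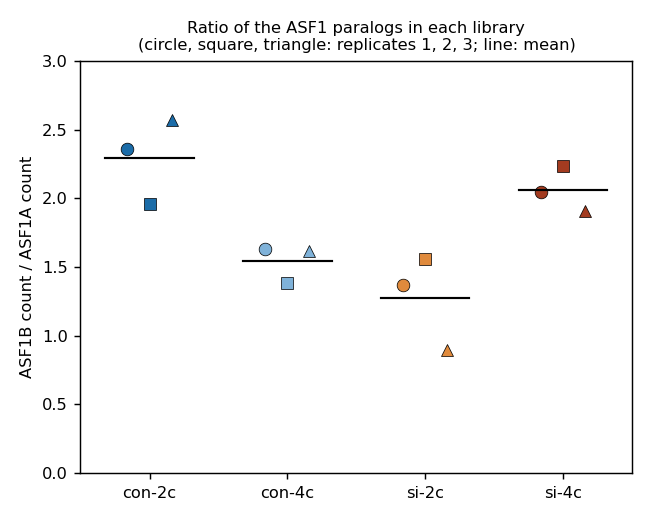
Ratio of ASF1B to ASF1A counts (y axis, no unit) in each library, by group on the x axis, with group means as lines. The con-2c and si-4c libraries sit between 1.91 and 2.57 and the con-4c and si-2c libraries between 0.891 and 1.63.

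NASP (ENSSSCG00000029573, chr6:165773964-165804978), which shields soluble H3-H4 from degradation, moved opposite to ASF1B. It was at 702, 606 and 637 CPM in con-2c and 761, 689 and 711 in si-4c, against 1005, 959 and 943 in con-4c and 921, 972 and 930 in si-2c. No library of con-4c or si-2c overlapped one of con-2c or si-4c. NASP was, by adjusted p alone, 1.49-fold higher in con-4c/con-2c (log2 fold change 0.58 ± 0.07 SE, adjusted p = 9.49e-06) and also higher in si-2c/con-2c (0.54 ± 0.07, adjusted p = 3.19e-05). It was lower in si-4c/con-4c (-0.43 ± 0.07, adjusted p = 0.000219) and also in si-4c/si-2c (-0.38 ± 0.07, adjusted p = 0.000807). Library totals gave the same directions (0.85, 0.93, -0.69 and -0.77).

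Of 13 partners of the HIRA and ASF1 pathway, 12 were tested, and in con-4c/con-2c 2 were called higher and 0 lower, against 14.4% of all genes called higher and 3.25% lower, so that 2 of 12 was near the share over all genes. The median log2 fold change was 0.42 beside 0.11 over all genes. The called genes were IPO4, the importin that carries H3-H4 into the nucleus, and CDAN1, which binds ASF1 in the cytoplasm. IPO4 had 0 counts in con-2c and si-4c and was at 2.67 ± 1.05 CPM in con-4c and 1.497 ± 0.160 in si-2c, at least 86.7-fold higher in con-4c than in con-2c and at least 48.7-fold higher in si-2c, taking 3 counts over the group of zeros as the floor. CDAN1 was at 0.192 ± 0.112 CPM in con-2c and 2.40 ± 0.153 in con-4c (3.61 ± 0.82 SE, adjusted p = 0.00220). In si-4c/con-4c, 0 of 12 were called higher and 2 lower, again IPO4 and CDAN1, against 15.8% of all genes called lower, with a median of -0.44 beside -0.11. IPO4 alone was called in si-2c/con-2c (10.7% of all genes higher, list median 0.23) and in si-4c/si-2c (11.9% of all genes lower, list median -0.32). With library totals 3 partners were called higher in the former (median 0.61, 16.8% of all genes) and 3 lower in the latter (median -0.70, 17.2% of all genes). Some partners, by adjusted p alone, went the other way, as in con-4c/con-2c, where 6 of 12 were higher and 3 lower, against 20.7% and 15.1% of all genes.

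CHAF1A (ENSSSCG00000013509, chr2:74380706-74411875), the large subunit of CAF-1, was at 30.5, 31.3 and 32.7 CPM in con-2c and 56.6, 43.7 and 45.2 in con-4c. The si-2c libraries were at 44.7, 45.9 and 38.7 CPM, those of si-4c at 39.0, 35.5 and 37.6. The con-2c libraries were below those of all other groups, and si-2c and si-4c overlapped. By adjusted p alone CHAF1A was higher in con-4c (log2 fold change 0.62 ± 0.11 SE, adjusted p = 0.000207) and in si-2c (0.45 ± 0.11, adjusted p = 0.00400) than in con-2c. It was lower in si-4c/con-4c (-0.38 ± 0.11, adjusted p = 0.0107), which did not hold without con-4c replicate 1 (-0.25, adjusted p = 0.0913) or without si-4c replicate 2 (-0.34, adjusted p = 0.0542). The difference of -0.20 ± 0.11 in si-4c/si-2c missed the threshold (adjusted p = 0.174), and was -0.59 (adjusted p = 0.00112) with library totals.

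CHAF1B (ENSSSCG00000012056, chr13:200048096-200074902), the middle subunit, was at 14.1, 9.57 and 12.2 CPM in con-2c and 12.01, 15.9 and 11.8 in con-4c. It was at 14.7, 13.2 and 12.5 CPM in si-4c, compared with 10.4, 11.97 and 21.3 in si-2c. Groups overlapped, and si-2c replicate 3 was the highest of all libraries. No difference passed, with log2 fold changes of 0.15 and 0.28 in con-4c/con-2c and si-2c/con-2c and 0.02 and -0.12 in si-4c/con-4c and si-4c/si-2c (adjusted p = 0.678, 0.399, 0.950 and 0.771). With library totals CHAF1B was higher in si-2c/con-2c by adjusted p alone (0.69, adjusted p = 0.0319), and the other 3 values were 0.41, -0.23 and -0.51. The 95% interval in con-4c/con-2c was -0.34 to 0.63, which includes the estimate for CHAF1A of 0.62. RBBP4, the third CAF-1 subunit, had no row under that symbol. Its paralog RBBP7, a histone-binding protein shared by several complexes, was at 846 ± 62.4 CPM in con-2c and 802 ± 30.5 in si-4c, against 547 ± 22.1 in con-4c and 493 ± 23.7 in si-2c. RBBP7 was named after its values were seen.

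CENPA (ENSSSCG00000038543, chr3:112263912-112272638) was at 15.1, 17.1 and 19.0 CPM in con-2c and 17.0, 9.48 and 10.8 in con-4c. The si-2c libraries were at 15.9, 19.3 and 18.2 CPM, those of si-4c at 17.0, 18.4 and 20.5. The con-4c group was the low one by mean (12.4 ± 4.05 CPM against 17.1 ± 1.93, 17.8 ± 1.72 and 18.6 ± 1.79), but con-4c replicate 1 was within the range of the other groups. CENPA was higher in si-4c/con-4c by adjusted p alone (log2 fold change 0.58 ± 0.18 SE, adjusted p = 0.0175), and this did not hold with library totals (0.32, adjusted p = 0.229) or without con-4c replicate 2 (0.43, adjusted p = 0.0952), con-4c replicate 3 (0.49, adjusted p = 0.0822) or si-4c replicate 3 (0.51, adjusted p = 0.0706). Without con-4c replicate 1 it was 0.89 (adjusted p = 0.000393). In con-4c/con-2c it was -0.46 ± 0.18 (adjusted p = 0.0590), or -0.76 (adjusted p = 0.00138) without con-4c replicate 1. In si-2c/con-2c (0.06, adjusted p = 0.851) and si-4c/si-2c (0.06, adjusted p = 0.844) CENPA passed no threshold.

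HJURP, the chaperone that brings CENPA to the centromere, was at 2.97 ± 0.163 CPM in con-2c and 3.16 ± 0.479 in si-4c, against 5.11 ± 0.837 in con-4c and 4.35 ± 0.837 in si-2c. It was higher in con-4c/con-2c (0.78, adjusted p = 0.0121) and lower in si-4c/con-4c (-0.69, adjusted p = 0.0225) by adjusted p alone, so its sign was opposite to that of CENPA in si-4c/con-4c. Of 8 genes for CENPA deposition, among them HJURP and the MIS18 licensing complex, 7 were tested and 0 were called in con-4c/con-2c, against 17.7% of all genes, or in the other comparisons between groups. With library totals 1 of 7 was called higher in con-4c/con-2c, against 17.9% of all genes. At adjusted p alone 1 was higher and 3 lower in con-4c/con-2c, against 20.7% and 15.1% of all genes. The medians were -0.20, -0.21, 0.12 and 0.17 in con-4c/con-2c and si-2c/con-2c and in si-4c/con-4c and si-4c/si-2c, and with library totals each had the opposite sign (0.07, 0.19, -0.14 and -0.22).

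The constitutive centromere-associated network, the protein layer built on CENPA nucleosomes, had 17 listed genes, of which 14 were tested. In con-4c/con-2c, 1 of 14 was called, CENPK, lower, and by adjusted p alone 11 were lower and 1, CENPL, higher, against 15.1% of all genes lower and 20.7% higher. The share of all genes called lower was 3.25%. The median log2 fold change was -0.64 beside 0.11 over all genes, and the groups of all 14 did not overlap, against 48.6% of all genes. In si-4c/con-4c CENPK was called higher (3.12% of all genes were), and 10 of 14 were higher and 0 lower by adjusted p alone, against 15.1% of all genes higher and 21.7% lower, with a median of 0.64. In si-2c/con-2c, CENPK and CENPT were called lower (1.80% of all genes were), 11 of 14 were lower and 2 higher by adjusted p alone, against 12.3% and 16.6% of all genes, and the median was -0.59. In si-4c/si-2c, 0 were called, 10 were higher and 1 lower by adjusted p alone, against 12.1% and 16.9% of all genes, and the median was 0.51. With library totals the medians of these 4 comparisons were -0.37, 0.38, -0.19 and 0.12, of the same signs, with 0 genes called in each. Of all genes on that scale, 1.27% were called lower in con-4c/con-2c, 1.28% higher in si-4c/con-4c, 0.322% lower in si-2c/con-2c and 0.278% higher in si-4c/si-2c. By adjusted p alone 7 were then lower, 7 higher, 4 lower and 4 higher, and 2 went the other way in each. The share of all genes passing by adjusted p alone on that scale is not given here, so these counts have no background beside them.

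Within the network CENPK, of the CENP-H/I/K/M subcomplex, was at 237 ± 36.0 CPM in con-2c and 213 ± 12.6 in si-4c, against 103 ± 5.17 in con-4c and 107 ± 6.56 in si-2c. Its log2 fold change was -1.20 ± 0.10 SE in con-4c/con-2c (adjusted p = 7.86e-08). Its levels ordered the groups in the same way as those of ASF1B, whereas CENPA itself was low in con-4c only by mean and not in si-2c.

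**Figure D4:**
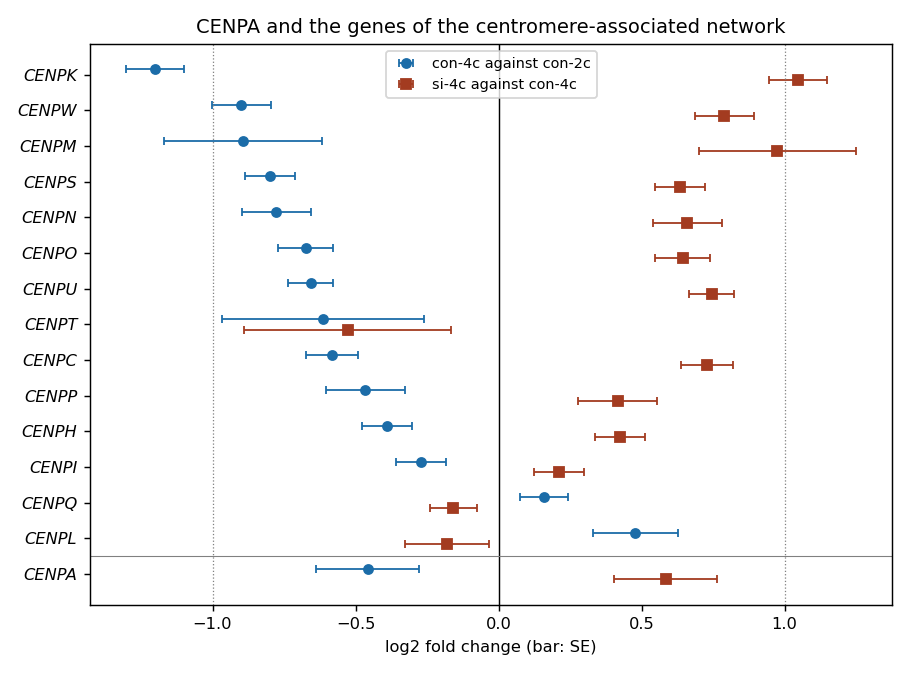
Log2 fold change (x axis, bars are SE) of 14 network genes and CENPA in con-4c/con-2c (circles) and si-4c/con-4c (squares), which share the con-4c libraries. CENPK is at -1.20 and 1.05 and CENPA at -0.46 and 0.58; with library totals the median of the 14 genes keeps its sign, at -0.37 and 0.38.

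The crossed comparisons set the groups with like levels against each other. In si-4c/con-2c 0 of 9 members were called, against 0.333% of all genes, with 1 at an unadjusted p below 0.05 in edgeR and 0 called by DESeq2. In si-2c/con-4c 0 of 9 were called, against 1.79% of all genes, with 2 at an unadjusted p below 0.05 and 0 called by DESeq2. ASF1B differed by -0.10 in the former (95% interval -0.30 to 0.10) and by 0.02 in the latter (-0.18 to 0.22). NASP differed by 0.15 and -0.04, ATRX by 0.13 and 0.00, and HIRA by -0.08 and 0.12. The values of HIRA were loose, with 95% intervals of -1.42 to 1.25 and -1.11 to 1.36. Leaving out 1 library at a time gave -1.24 to 0.39 for HIRA in si-4c/con-2c. For CHAF1B the values were 0.17 and 0.14, for DAXX 0.01 and -0.29, and for ASF1A 0.04 and 0.36, the last being 1 of the 2 members with an unadjusted p below 0.05 in si-2c/con-4c, with CENPA. The member whose groups did not overlap in si-4c/con-2c was CHAF1A (0.25, adjusted p = 0.395, with -0.17 in si-2c/con-4c, against 14.1% of all genes whose groups did not overlap). The largest value in si-2c/con-4c was that of CENPA (0.52, adjusted p = 0.0973, with 0.13 in si-4c/con-2c), and no member's groups stayed apart there, against 27.1% of all genes. Over the alternative settings the CENPA value in si-2c/con-4c ran from 0.36 to 0.82, with adjusted p from 0.00492 to 0.368.

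Whether si-CCNB2 acted differently in the title stages was tested by the interaction, the difference si-4c minus con-4c less the difference si-2c minus con-2c. Of 9 members, 2 were called higher and 1 lower, against 32.4% of all genes called, 9.87% higher and 22.5% lower. ASF1B had an interaction of 2.38 ± 0.14 SE (adjusted p = 3.21e-10) and ASF1A one of 1.05 ± 0.21 (adjusted p = 0.000587), the latter 0.38 (adjusted p = 0.147) with library totals. HIRA had one of -2.95 ± 0.87 (adjusted p = 0.0106), from -4.10 to -2.47 when each library was left out in turn. NASP (-0.96 ± 0.10, adjusted p = 9.69e-07), CHAF1A (-0.83 ± 0.15, adjusted p = 0.000257) and ATRX (-0.55 ± 0.11, adjusted p = 0.000704) passed by adjusted p alone, which made 6 of 9 against 45.5% of all genes. The interaction did not pass for DAXX (-0.22, adjusted p = 0.745), CHAF1B (-0.26, adjusted p = 0.551) and CENPA (0.52, adjusted p = 0.106). That of CHAF1B was -0.92 (adjusted p = 0.0314) with library totals, and that of CENPA was -0.13 (adjusted p = 0.739) with library totals but 0.83 (adjusted p = 0.00392) without con-4c replicate 1. With library totals ATRX (-1.21), CHAF1A (-1.48) and NASP (-1.62) were called lower. Of the 12 partners tested, 2 were called higher (MMS22L and RBBP7) and 4 lower (IPO4, CDAN1, TONSL and UBN1, the last at -1.48 with adjusted p = 1.47e-05), against the same shares of all genes, and with library totals 0 were called higher and 7 lower, against 3.19% and 33.6%. Of the 7 genes for CENPA deposition, RBBP7, which is on both lists, was called higher and HJURP lower (-1.24, adjusted p = 0.00412). In the centromere network 9 of 14 were called higher and 0 lower, or 1 higher and 2 lower with library totals.

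Of 17 other histone chaperones, 13 were tested, and in con-4c/con-2c 2 were called higher and 0 lower, near the 14.4% of all genes called higher (median 0.24 beside 0.11 over all genes). They were SPTY2D1, an H3-H4 chaperone related to yeast SPT2, and the histone-binding WD-repeat protein GRWD1. SPTY2D1 rose from 10.2 ± 1.35 CPM in con-2c to 131 ± 8.06 in con-4c (3.68 ± 0.11 SE, adjusted p = 3.14e-13) and was at 77.3 ± 6.73 in si-2c and 8.61 ± 0.554 in si-4c. GRWD1 rose from 0.940 ± 0.203 CPM in con-2c to 9.35 ± 1.21 in con-4c (3.31 ± 0.28, adjusted p = 8.48e-08), with 1.24 ± 0.409 in si-4c and 6.14 ± 1.35 in si-2c. The same genes were called higher in si-2c/con-2c and lower in si-4c/con-4c and si-4c/si-2c, against 10.7%, 15.8% and 11.9% of all genes. No other gene of the list was called there. With library totals 3 genes of the list were called lower in si-4c/si-2c, against 17.2% of all genes. In size the changes of SPTY2D1 and GRWD1 exceeded those of the members, which ranged from -1.25 to 1.37 in con-4c/con-2c.

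Of 20 genes for histone variants and histone mRNA processing, 13 were tested, and in con-4c/con-2c 3 were called higher and 0 lower, against 14.4% and 3.25% of all genes (median -0.00 beside 0.11). They were H2AFZ and H2AZ2, which encode the replacement histone H2A.Z, and ZNF473, a factor of histone pre-mRNA 3' end processing. H2AFZ was at 119 ± 10.1 CPM in con-2c and 109 ± 12.6 in si-4c, against 343 ± 21.1 in con-4c and 180 ± 18.1 in si-2c (1.52 in con-4c/con-2c, adjusted p = 3.70e-09). H2AZ2 was at 17.2 ± 0.843, 18.5 ± 4.98, 58.9 ± 5.92 and 25.9 ± 3.44 CPM in the same order, and was called lower in si-2c than in con-4c. In si-4c/con-4c 0 were called higher and 3 lower, against 3.12% and 15.8% of all genes. In si-2c/con-2c 1 was called higher, ZNF473, and 1 lower, the oocyte linker histone H1-8, and in si-4c/si-2c H1-8 was called higher and ZNF473 lower. Of all genes, 10.7% were called higher and 1.80% lower in the former and 1.47% higher and 11.9% lower in the latter. With library totals 0 genes of this list were called lower in si-2c/con-2c and 0 higher in si-4c/si-2c, so neither call of H1-8 held, and 0.322% and 0.278% of all genes were called so.

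The genes whose pattern lay nearest to each member were found by the mean absolute difference of log2 CPM, centred on each gene's mean over the 12 libraries, among 5320 genes with a symbol and a mean of at least 10 CPM. HIRA and DAXX were below that mean. ASF1B was nearest to KNSTRN (0.0915) and DSCC1 (0.0975), where its own mean absolute deviation was 0.594. ASF1A was nearest to SLC10A7 (0.0699) and PLRG1 (0.0829), with an own deviation of 0.326. NASP was nearest to DYNC1LI2 (0.0514) and POLD3 (0.0528), CHAF1A to MPHOSPH8 (0.0668) and GEMIN5 (0.0723), and ATRX to DNM3 (0.0458) and AGTPBP1 (0.0516), with own deviations of 0.242, 0.209 and 0.140. CENPA (PRDM6, 0.115, and PCDHAC2, 0.121, with an own deviation of 0.241) and CHAF1B (NCKAP1L, 0.134, and DENND1A, 0.143, with 0.217) had no such close match. Within a distance of 0.15 there were 809 genes for ATRX, 434 for NASP, 327 for CHAF1A, 293 for ASF1A, 76 for ASF1B, 5 for CENPA and 4 for CHAF1B, and the genes named for ATRX, NASP, CHAF1A and ASF1A are the nearest of many with a like pattern. These distances describe 12 libraries that share their groups, and were not tested.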

How the data were processed

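The authors deposited raw counts for Ensembl genes, as whole numbers without normalization. The submitters' processing notes name cutadapt 1.9, HISAT2 2.2.1, StringTie 2.1.6, DESeq2, edgeR and the build Sscrofa11.1, without their roles. How reads were counted (program, annotation release, strand, reads with several matches) is not given in the sources used here, so values of near-identical and overlapping genes, such as paralogs, are uncertain. Positions are those of RefSeq for Sscrofa11.1, matched by symbol for 8 of the 9 members.

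Tests ran in edgeR 4.0.16 under R 4.3.3: filterByExpr kept 17995 genes, libraries were scaled by TMM, and 1 quasi-likelihood model of 4 group means was fitted to all 12 libraries (common dispersion 0.0745, biological coefficient of variation 27.3%). Benjamini-Hochberg adjustment covered all genes tested. A call needed an adjusted p below 0.05 and a log2 fold change of at least 1 in size, the thresholds of the study, whose tool, DESeq2 (1.42.0 here), was an alternative. SE was taken as log2 fold change over the root of the F statistic, and CPM is computed here from the deposited counts. Genes at 0 in a group were given a floor of 3 counts over the group. Log2 CPM for distances used a prior count of 2. Scripts were tested on simulated data.

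Library depth was 27785233 to 39510908 counts. Reads carry no molecular identifiers, so the replicate libraries set the precision. Within groups, libraries differed beyond sampling noise, with a chi-square of 7.48 to 44.0 per degree of freedom. The labels do not say whether replicates came from separate batches of embryos, and p-values measure the spread between these pools only.

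All members were named in every comparison, CCNB2 as the check of the target, UBN1, UBN2, CABIN1, RBBP4, HJURP, H3-3A and H3-3B as partners, and from the lists at most the 3 called genes with the smallest p in con-4c against con-2c. Genes named outside this rule were chosen after their values were seen (RBBP7, MMS22L, TONSL, CENPL, CENPT and H1-8). The members and the gene lists were chosen with earlier results of these data known. Alternatives were DESeq2, RLE factors and library totals as scales, other filters, no minimum fold, only the groups compared, a replicate block, and each library left out. The group comparisons of the whole transcriptome beyond the genes above were left out.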

Additional observations from a re-analysis of the deposited data

Results flagged for a closer look

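For 6 of the 9 members the difference between si and control embryos itself differed between the title stages by the interaction test, at adjusted p below 0.05 in edgeR, against 45.5% of all genes. The interaction was 2.38 for ASF1B (log2 fold change -1.23 in si-2c/con-2c and 1.15 in si-4c/con-4c) and 1.05 for ASF1A (-0.33 and 0.72). It was -2.95 for HIRA (1.49 and -1.46), -0.96 for NASP (0.54 and -0.43), -0.83 for CHAF1A (0.45 and -0.38) and -0.55 for ATRX (0.34 and -0.21). In each of the 6 genes the si effect had opposite signs at the title stages, though the HIRA effects and the effect of si-2c on ASF1A did not pass on their own. For ASF1A this depended on the scale, since with library totals its effects were 0.09 and 0.47 and its interaction 0.38 (adjusted p = 0.147). The stage in the title and in the tissue label disagree in every library, and exchanging them in all of them would turn the sign of each interaction but not its size. An exchange in only the si or only the control libraries would instead make the crossed comparisons the si effects. ASF1B differed there by -0.10 in si-4c/con-2c and by 0.02 in si-2c/con-4c. Which labels are right was not tested.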

How the results depend on the processing

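No member's called value changed sign under any setting that was run: of 1237 values, 1186 stayed on their side of the threshold, 39 gained a call and 12 lost one. In the crossed comparisons 0 members were called under every setting that was run. With library totals 0 members were called lower in con-4c/con-2c, 1 higher and 0 lower in si-2c/con-2c, 0 higher and 1 lower in si-4c/con-4c and in si-4c/si-2c, and 1 higher and 4 lower in the interaction. Of all genes, 1.27% were then lower in con-4c/con-2c, 16.8% higher in si-2c/con-2c, 18.7% and 17.2% lower in si-4c/con-4c and si-4c/si-2c, and 3.19% higher and 33.6% lower in the interaction. ASF1B then lay under the minimum fold and HIRA was called (1.88, adjusted p = 0.0274, in si-2c/con-2c, -1.71, adjusted p = 0.0436, and -1.96, adjusted p = 0.0225, in si-4c), and the cause was not tested. Dropping the minimum fold keeps small changes, and 3 members were then higher and 2 lower in con-4c/con-2c (20.7% and 15.1% of all genes). In si-2c/con-2c 3 were higher and 1 lower (16.6% and 12.3% of all genes). In si-4c/con-4c 3 were higher and 3 lower (15.1% and 21.7% of all genes), and in si-4c/si-2c 1 and 1 (12.1% and 16.9%). The interaction had 2 higher and 4 lower on that setting (18.2% and 27.3% of all genes). Fitting only the groups compared called 1 member higher in con-4c/con-2c and in si-2c/con-2c (15.1% and 10.3% of all genes). Without a filter on low counts 1 was called higher in si-2c/con-2c (7.05% of all genes) and 1 lower in si-4c/si-2c (7.77%), as by DESeq2 in the latter. In each of these cases the member was HIRA. The interaction had 1 higher and 2 lower with DESeq2, with RLE factors and with at least 10 CPM in 3 libraries, where ASF1A and NASP crossed the minimum fold (0.99 and -1.02 with DESeq2), HIRA and DAXX not being tested in the last, in which CHAF1A was called (-1.02); of all genes 9.08% to 13.6% were higher and 17.0% to 24.3% lower.

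Leaving out 1 library at a time gave 0 to 1 members called higher in con-4c/con-2c and in si-2c/con-2c, 0 to 1 called lower in si-4c/con-4c and in si-4c/si-2c, and 1 to 2 higher and 1 to 2 lower in the interaction. Of all genes these settings called 11.5% to 13.9% and 8.22% to 10.3% higher, 12.6% to 15.2% and 8.96% to 11.6% lower, and in the interaction 8.91% to 9.43% higher and 20.6% to 21.9% lower. The libraries concerned were si-4c replicate 3 for HIRA in all 4 comparisons and si-4c replicate 2 in si-2c/con-2c (HIRA, 1.49, adjusted p = 0.0412). In the interaction they were con-2c replicate 1, con-4c replicate 1 and si-2c replicates 1 and 2 for ASF1A (0.94 to 0.99), and con-2c replicate 1 for NASP (-1.02). Libraries of the same number did not deviate together (correlation of deviations -0.0495 to 0.0290, with 5 of 12 libraries nearest to their own number). The main model did not pair libraries by number, and this check cannot tell whether libraries of the same number shared a batch. With the replicate block 1 member was called lower in si-4c/con-4c (HIRA, -1.83, adjusted p = 0.0292, 14.5% of all genes) and 1 in si-4c/si-2c (HIRA, -1.76, adjusted p = 0.0377, 10.2% of all genes), and no other call of a member changed. At 5 to 134 counts a library, HIRA is the member whose calls depend most on the setting among those that were run.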
